A study of Tribolium castaneum with 8 samples.

Results

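The genes described here are 5 hexamerin genes of the red flour beetle Tribolium castaneum, chosen by a list of gene identifiers out of 14422 genes with reads in at least 1 library. They are hexamerin 1B (TC005377), arylphorin (TC005376), hexamerin 2 (TC006769), hexamerin 4 (TC005375) and hexamerin 5 (TC006515), as the protein names in the files give them. All 5 had reads at every stage. The files hold 1 further gene with that family name, hexamerin 3 (TC005374), which is not on the list and is set beside the others below.

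Polyadenylated RNA was sequenced from whole bodies of the laboratory strain GA-1, reared on whole wheat flour with yeast, at 4 stages of life. These were 3-day embryos, 20-day larvae, 3-day pupae and 3-day adults, with 1 library per stage and no treatment. The labels do not state how many animals, or of which sex, went into an RNA library. DNA methylation libraries of the same stages were not analysed here. The libraries held 3.24 M (embryo), 3.58 M (larva), 3.67 M (pupa) and 3.09 M (adult) reads assigned uniquely to genes, with a median of 90, 81, 86 and 71 reads per listed gene. Since no stage was sequenced more than once, differences lack a replicate check, and values compare these libraries and not the stages at large. Intervals are 95% intervals for counting error only. In whole bodies, fewer cells that make a transcript and less transcript per cell cannot be told apart.

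Hexamerins are proteins of the insect blood, or hemolymph, that assemble as hexamers and descend from the same ancestors as the oxygen carrier hemocyanin and the melanin-forming enzyme prophenoloxidase. The fat body of feeding larvae secretes them in large amounts. Around the larval-pupal moult they are taken back up and kept as a store of amino acids that is drawn on while the adult is built during the non-feeding pupal stage. Arylphorins are hexamerins rich in the aromatic amino acids phenylalanine and tyrosine, which are also used to harden new cuticle. In the deposited annotation the hexamerins carry the KEGG entry tyrosinase.

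Most of these genes sit side by side. On the RefSeq assembly icTriCast1.1, used here for names and neighbours only, the proteins named in the files matched genes for 5 of 5 members. In order along that assembly, HEX3, HEX4, HEX2, HEX1A and HEX1B form a run of 5 hexamerin genes with no other protein-coding gene between them. HEX4 is hexamerin 4, HEX2 hexamerin 2, HEX1A the arylphorin and HEX1B hexamerin 1B, so 4 of the 5 members lie in the run. HEX5 (hexamerin 5) lies apart, where its span overlaps that of the gene muc, and a long non-coding RNA gene overlaps the span of HEX2. The labels' protocol describes no step that marks the strand, so reads cannot be told apart where exons of such overlapping genes coincide. Whether they coincide was not tested.

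As a family, the hexamerins were most abundant in the larval library. The 5 genes together took 0.0442% of embryo reads (0.0420 to 0.0466), 11.7% of larval reads (11.7 to 11.8), 0.451% of pupal reads (0.444 to 0.458) and 0.0151% of adult reads (0.0137 to 0.0165). In read numbers this was 1435, 420242, 16569 and 465 from embryo to adult. One hexamerin read stood for 2261 library reads in embryos, 8.51 in larvae, 222 in pupae and 6637 in adults. The larval library was highest, followed by the pupal, embryo and adult libraries, and none of the 4 intervals touched another. Reads of long transcripts weigh more in such shares. Counted per length, as a share of the summed RPKM (reads per kilobase of gene model and per M reads of the library), the 5 genes held 0.0254% of the embryo sum, 6.47% of the larval, 0.269% of the pupal and 0.00844% of the adult sum.

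Embryo, larva and pupa each had another leading hexamerin. In the embryo, hexamerin 4 made up 75.2% of the family's summed RPKM, and in the pupa hexamerin 5 made up 64.3% and hexamerin 4 another 32.1%. In the larva the makeup was 38.5% hexamerin 1B, 29.8% arylphorin and 28.5% hexamerin 2, which left 3.13% for hexamerin 4 and 0.163% for hexamerin 5. In the adult, at a far lower total, arylphorin held 28.7%, hexamerin 1B 28.1%, hexamerin 2 24.4%, hexamerin 5 11.7% and hexamerin 4 7.20%, and the first 2 were not apart. These shares are within a library and do not depend on how libraries are scaled to each other.

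**Figure D1:**
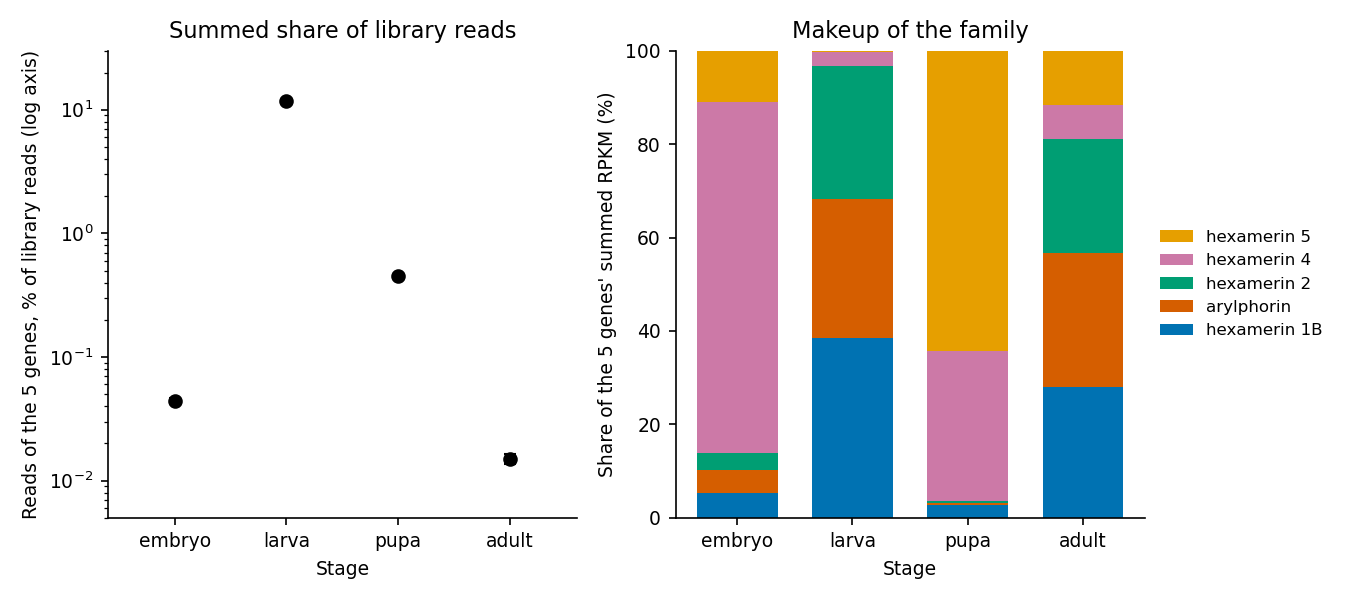
Left, reads of the 5 genes as a percent of each library's reads on a log axis, with exact 95% counting intervals, most of them smaller than the point; right, share of each gene in the summed RPKM of the 5 genes. The larval point stands at 11.7%, and the leading gene is hexamerin 4 in the embryo, hexamerin 1B in the larva, hexamerin 5 in the pupa and arylphorin, close to hexamerin 1B, in the adult.

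Hexamerin 1B was the most abundant gene of the whole larval library by reads and by RPKM. Its level was 11.2 RPKM in embryos, 20317 in larvae, 56.6 in pupae and 19.2 in adults, from 84, 167863, 480 and 137 reads. The larval library held 99.6% of the gene's RPKM summed over the 4 libraries. Below the larva the order was pupa, adult, embryo, and each neighbour in that order was apart beyond counting error, with the adult 2.94-fold below the pupa (2.43 to 3.59) and 1.71-fold above the embryo (1.30 to 2.28).

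Arylphorin followed the same larval peak. It stood at 10.3 RPKM in embryos, 15723 in larvae, 13.1 in pupae and 19.6 in adults, from 75, 126363, 108 and 136 reads. In the larva it ranked 2nd by reads and 3rd by RPKM. Outside the larva its adult level was 1.50-fold above the pupal one (1.16 to 1.95), while the pupal and embryo levels were not apart at this depth, with a ratio of 1.27 (0.939 to 1.73).

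Hexamerin 2 was at 7.20 RPKM in embryos, 15056 in larvae, 8.18 in pupae and 16.7 in adults, from 49, 112926, 63 and 108 reads. It ranked 3rd in the larva by reads and 4th by RPKM. As for arylphorin, the adult level exceeded the pupal one, 2.04-fold (1.48 to 2.83), and pupa over embryo was 1.14 (0.769 to 1.68), which includes 1. The larval library held 99.8% of the gene's summed RPKM, and 99.7% of that of arylphorin.

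Hexamerin 4 was spread over more of the life cycle. Its level was 157 RPKM in embryos, 1652 in larvae, 683 in pupae and 4.92 in adults, from 1070, 12440, 5287 and 32 reads. By RPKM it ranked 893rd in the embryo, 39th in the larva, 138th in the pupa and 10029th in the adult. The pupal library held 27.4% of its summed RPKM and the larval library 66.2%. The order larva, pupa, embryo, adult had no pair of neighbours within counting error: the pupa was 2.42-fold below the larva (2.34 to 2.50) and 4.36-fold above the embryo (4.09 to 4.67), and the adult was 31.8-fold below the embryo (22.4 to 46.7).

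Hexamerin 5 was the pupal member of the family. It stood at 22.9 RPKM in embryos, 86.0 in larvae, 1370.4 in pupae and 7.98 in adults, from 157, 650, 10631 and 52 reads. In the pupa it ranked 14th by reads and 48th by RPKM, and 92.1% of its summed RPKM lay there. The larva came next, 3.76-fold above the embryo (3.15 to 4.50), and the adult was lowest, 2.87-fold below the embryo (2.09 to 4.01).

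**Figure D2:**
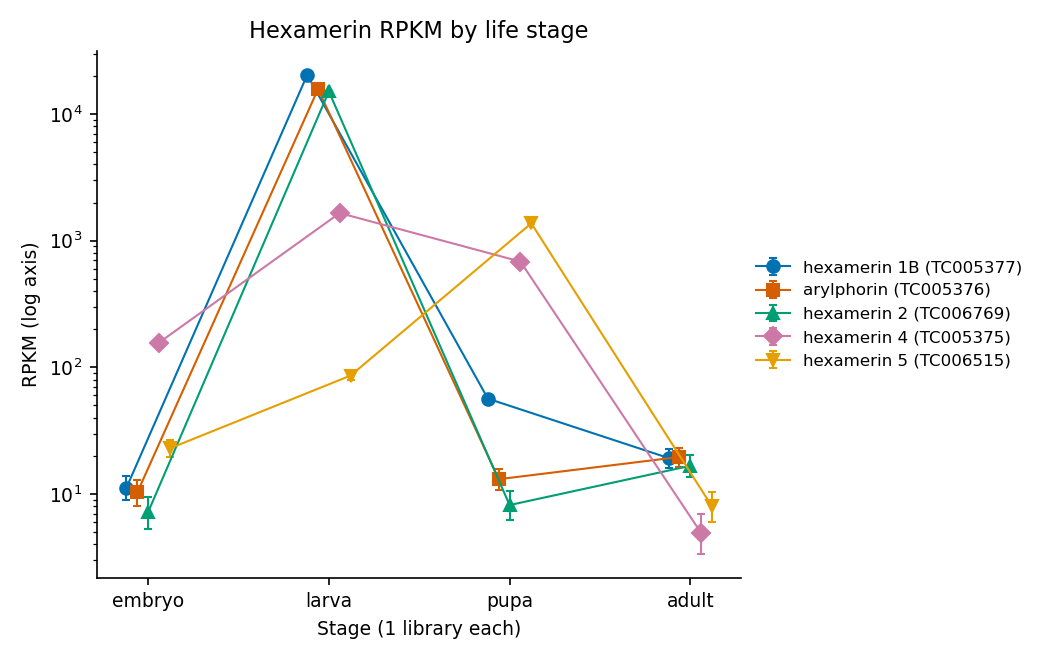
RPKM of each hexamerin (log axis) in the embryo, larval, pupal and adult library, with exact 95% Poisson intervals on the reads; lines join the values of 1 gene. Hexamerin 1B, arylphorin and hexamerin 2 peak in the larva at 20317, 15723 and 15056 RPKM, hexamerin 4 is also highest there, at 1652 RPKM, and hexamerin 5 peaks in the pupa at 1370.4 RPKM.

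The first step of development set the larva against the embryo. Counting a gene as different from 2-fold on, on the scale of (RPKM + 1) and among genes with at least 1 RPKM in either library, all 5 members passed the filter and 5 were higher in the larva, against 18.6% of 12179 genes tested. None of the 5 was lower, against 34.2% of all genes. The median log2 difference of the members was 10.44 and that of all genes -0.62. By size, the larval differences of hexamerin 2, hexamerin 1B and arylphorin ranked 1st, 2nd and 3rd from the top of all genes tested, while hexamerin 4 ranked 770th and hexamerin 5 ranked 1529th. As plain RPKM ratios, larva over embryo was 2091 for hexamerin 2 (1581 to 2826), 1813 for hexamerin 1B (1464 to 2273) and 1528 for arylphorin (1219 to 1943). Hexamerin 4 was 10.5-fold higher in the larva (9.91 to 11.2) and hexamerin 5 was 3.76-fold higher (3.15 to 4.50).

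The pupa was then set against the larva, the step across which larvae stop feeding. Here 4 of the 5 members were at least 2-fold lower in the pupa, against 14.2% of 12280 genes tested, and 1 was higher, against 22.7%. Hexamerin 2 and arylphorin had the 2 largest downward differences of all genes tested, and hexamerin 1B ranked 35th from that end. These 3 genes had 651 reads in the pupa, against 407152 in the larva. As plain ratios the pupal level was 1841-fold lower for hexamerin 2 (1439 to 2396), 1202-fold lower for arylphorin (995 to 1465) and 359-fold lower for hexamerin 1B (328 to 394). Hexamerin 4 was lower by far less, 2.42-fold (2.34 to 2.50), and ranked 1455th. Hexamerin 5, the 1 that was higher, was 15.9-fold up (14.7 to 17.3) and ranked 90th from the top. The median log2 difference of the members was -8.46, against 0.43 for all genes.

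The last step set the adult against the pupa. Of the 5 members 3 were at least 2-fold lower in the adult, against 15.6% of 12713 genes tested, and 0 were higher, against 22.8%. Hexamerin 5 was 172-fold lower (131 to 230) and hexamerin 4 was 139-fold lower (98.2 to 203), ranks 10 and 16 from the bottom of all genes. Their adult values rest on 52 and 32 reads, and whether these came from RNA of the stage itself was not tested. Hexamerin 1B was 2.94-fold lower (2.43 to 3.59). Hexamerin 2 decides the count of 0 higher. It had a plain ratio of 2.04 (1.48 to 2.83) and a log2 difference of 0.95 after 1 RPKM was added, just under the threshold, and it passed 2-fold with a pseudocount of 0.1, with median-ratio scaling and with totals that leave out the 20 most abundant genes of each library. The members' median log2 difference was -1.51, against -0.09 for all genes.

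**Figure D3:**
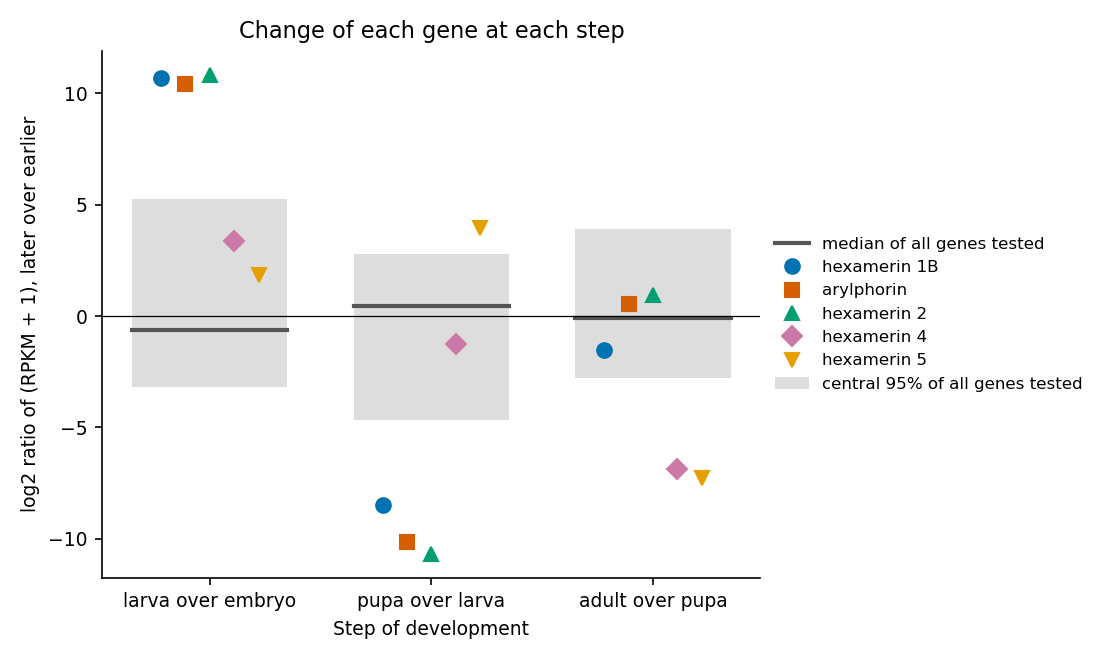
Log2 ratio of (RPKM + 1), later over earlier stage, for each hexamerin at the 3 steps; grey bars span the central 95% of all genes tested and the dark line is their median. Hexamerin 1B, arylphorin and hexamerin 2 lie outside the grey range at the larval and pupal steps, hexamerin 5 above it at the pupal step, and hexamerins 4 and 5 below it at the adult step.

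Over the whole span, the adult was compared with the embryo. Hexamerin 4 was 31.8-fold lower in the adult (22.4 to 46.7) and hexamerin 5 was 2.87-fold lower (2.09 to 4.01). The 3 larval hexamerins were instead a little higher in the adult, hexamerin 2 by 2.32-fold (1.64 to 3.32), arylphorin by 1.91-fold (1.43 to 2.56) and hexamerin 1B by 1.71-fold (1.30 to 2.28), all at levels below 20 RPKM. These 3 ratios rest on 49 to 137 reads per gene and library, 0.0434% to 0.108% of the gene's larval reads. Whether such reads, or the 32 adult reads of hexamerin 4 and 52 of hexamerin 5, came from RNA of the stage itself was not tested.

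The large larval share also enters the scale itself. Without the 5 members the larval total was smaller by a factor of 1.13, so RPKM values of all other genes in the larva carry that factor. Median-ratio scaling, which balances the typical gene, brought the median log2 difference of all genes to -0.01 for larva over embryo, 0.00 for pupa over larva and 0.12 for adult over pupa. Under it the larval ratio of hexamerin 2 to the embryo was 3261, that of hexamerin 4 was 16.4 and that of hexamerin 5 was 5.86, while for pupa over larva hexamerin 5 was at 11.6. All 5 members kept the same order of their 4 libraries under each of the 4 scalings tried.

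Ratios between members within a library are free of any scaling between libraries, though they use the model lengths and unique reads only. They differed between libraries even among the 3 larval genes. Hexamerin 1B stood at 1.09 times the level of arylphorin in embryos (0.788 to 1.51), 1.29 times in larvae (1.28 to 1.30) and 4.32 times in pupae (3.50 to 5.38). In adults the order was the other way round but not beyond counting error, with arylphorin at 1.02 times hexamerin 1B (0.799 to 1.30). The pupal interval lay above the larval one, while the embryo interval held the larval value. Hexamerin 1B over hexamerin 2 was 1.56 in embryos (1.08 to 2.26), 1.35 in larvae (1.34 to 1.36), 6.92 in pupae (5.31 to 9.14) and 1.15 in adults (0.888 to 1.50). Arylphorin over hexamerin 2 was 1.43 in embryos (0.983 to 2.09), 1.04 in larvae (1.04 to 1.05), 1.60 in pupae (1.16 to 2.22) and 1.18 in adults (0.906 to 1.53). Hexamerins 4 and 5 stood in opposite order in pupa and larva. In the pupa hexamerin 5 stood at 2.01 times hexamerin 4 (1.94 to 2.07), and in the larva hexamerin 4 stood at 19.2 times hexamerin 5 (17.7 to 20.8).

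The few reads of the 3 larval hexamerins at other stages were a small part of their larval reads. Relative to their own larval reads, hexamerin 1B had 0.0500% in the embryo, 0.286% in the pupa and 0.0816% in the adult. Arylphorin had 0.0594%, 0.0855% and 0.108% in the same libraries, and hexamerin 2 had 0.0434%, 0.0558% and 0.0956%. Of the 50 genes with the most larval reads, 46 are not members, and the lowest value among these was 0.0568% in the embryo, 0.0501% in the pupa and 0.0568% in the adult. The 46 genes' medians were 15.9%, 69.5% and 48.6%. Below 0.2%, a limit chosen after the values were seen, lay 10 of the 46 in the embryo, 9 in the pupa and 3 in the adult, and 2 in all of these libraries. Whether reads at that level came from RNA of the stage itself was not tested. That open point holds for every ratio of the 3 larval hexamerins with a value from the embryo, pupal or adult library. The ratios to the larva are among them. Hexamerin 4 in the adult, with 32 reads or 0.257% of its larval reads, lay in the range of these 3 genes, so the point holds there too.

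**Figure D4:**
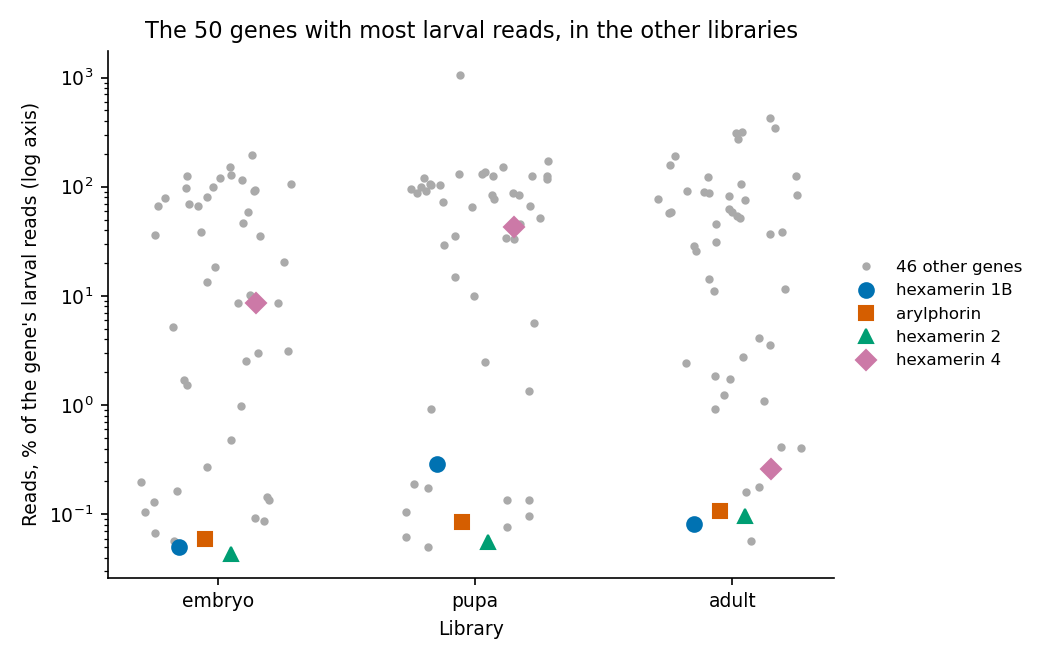
Reads in the embryo, pupal and adult library as a percent of the gene's larval reads (log axis) for the 50 genes with the most larval reads; grey points are the 46 that are not members. Hexamerin 1B, arylphorin and hexamerin 2 lie between 0.0434% and 0.286%, with grey points below hexamerin 1B in the pupa, and hexamerin 4 stands at 8.60% in the embryo, 42.5% in the pupa and 0.257% in the adult.

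Coverage is the deposited percent of a gene model touched by reads, and each value was set beside genes of the same library with 80 to 125% of the member's reads per kilobase. Of 17 values with at least 20 such genes, 14 lay between the 5th and 95th percentile of these genes, 3 above and 0 below. In the larva coverage was 99.0% for hexamerin 5 and 99.87% or more for the other members. In the embryo, hexamerin 1B had 69.8%, against a median of 68.7% over 786 genes, arylphorin 69.2% against 66.0% and hexamerin 2 54.2% against 55.7%. Hexamerin 4 in the adult, on 32 reads, had 46.2% against 44.2%, and hexamerin 5 had 51.0% against 58.6%. The values above the range were hexamerin 4 in the larva and in the pupa, at 99.95% each, and hexamerin 2 in the pupa, at 80.2%, with a median of 64.5% and a 95th percentile of 77.9% over 769 genes. The 3 leading larval genes had too few genes of like density for such a range.

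**Figure D5:**
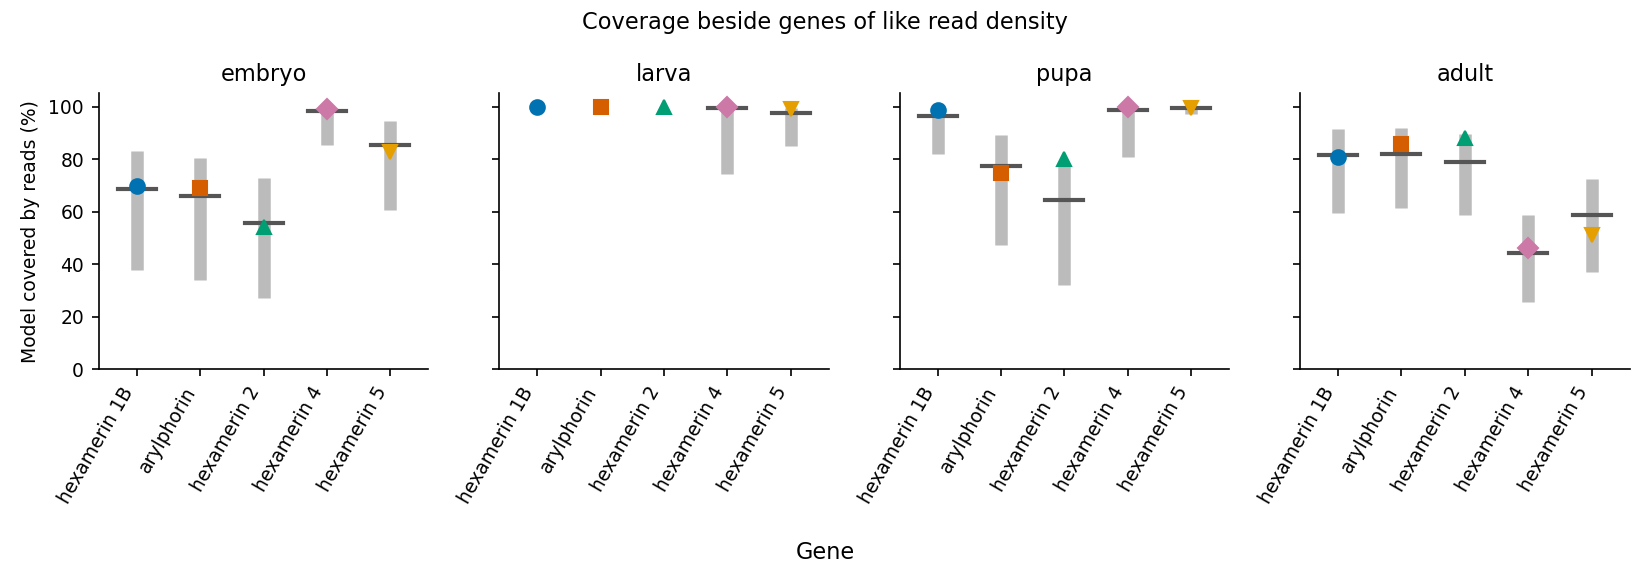
Percent of each gene model covered by reads in each library (points), with the 5th to 95th percentile (grey bar) and median (dark line) of genes with a like read density in that library. Members at high density are covered almost fully, and hexamerin 4 in the adult has 46.2% beside a median of 44.2%; bars are left out where fewer than 20 genes matched.

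The unlisted hexamerin 3 had a profile of its own. It was at 0.148 RPKM in embryos, 32.4 in larvae, 32.3 in pupae and 0.310 in adults, from 1, 242, 248 and 2 reads. Pupa and larva were not apart, at a ratio of 0.998 (0.833 to 1.20). With hexamerin 3 included the 6 genes took 0.458% of pupal reads and 11.8% of larval reads. Of these 6 named storage genes, 6 passed 2-fold upward and 0 downward in the larva over the embryo, against 18.6% and 34.2% of all genes tested. In the pupa over the larva 1 was higher and 4 lower, against 22.7% and 14.2%. In the adult over the pupa 0 were higher and 4 lower, against 22.8% and 15.6%. The median log2 differences were 7.65, -4.87 and -3.09, where those of all genes were -0.62, 0.43 and -0.09.

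Genes with the most similar profile were sought among 5548 genes that reached 50 RPKM in 1 library or more, by the summed difference in the percent of a gene's RPKM that each of the 4 libraries holds. With 4 points, such likeness is a description only. For hexamerin 2 the nearest was a gene named similar to pupal cuticle protein 78E (TC013136), 0.0898 percentage points away. It had 3877 RPKM in the larva and 2.43 to 2.86 in the other libraries. The latter rest on 3 or 4 reads each, and whether these came from RNA of the stage itself was not tested. Arylphorin and hexamerin 2 were 0.120 points apart and each among the other's 3 nearest, along with TC014083, annotated as a chymotrypsin-like protease (0.123 points from arylphorin), and TC008359, annotated as an alpha-glucosidase (0.204 points from hexamerin 2). For hexamerin 1B the nearest were TC000597, TC014153 and TC006262, at 0.254 to 0.298 points. Hexamerins 4 and 5, less concentrated in 1 library, had no such close match. By this measure, genes held almost wholly by the same library lie close by construction. The distances therefore do not show which profiles are more unusual. For hexamerin 5 the nearest was a gene named similar to an adult cuticle protein (TC015901), 3.37 points away, with 137 RPKM in the pupa, and then TC016319 at 5.39 points, with 5965 RPKM there, and TC013412, named similar to a phosphatidylethanolamine binding protein, at 6.05 points. For hexamerin 4 it was TC007273, at 9.38 points, followed by TC003048, with 4811 RPKM in the larva, and TC010912, at 11.4 points.

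None of the other hemolymph and yolk genes named by the files reached the larval level of hexamerin 1B, arylphorin or hexamerin 2. Yolk and lipid carriers comprised 5 genes, with 3 of 5 tested at least 2-fold higher in the larva than in the embryo and 1 lower, 0 of 4 higher and 1 lower in the pupa than in the larva, and 1 of 3 higher and 0 lower in the adult than in the pupa. Over all genes tested, 18.6% were higher and 34.2% lower at the larval step, 22.7% and 14.2% at the pupal step, and 22.8% and 15.6% at the adult step. The list medians were 1.19, -0.76 and -0.14 at these steps, where those of all genes were -0.62, 0.43 and -0.09. With median-ratio scaling 3 in place of 1 were lower in the pupa than in the larva, and the last median was 0.07. Under it the all-gene medians were -0.004 at the pupal and 0.12 at the adult step, while the shares above are for RPKM as reported. Apolipophorin-III (TC015373), which helps lipids travel through the hemolymph, stood at 286 RPKM in embryos, 3015 in larvae, 2459 in pupae and 1816 in adults, so it was 10.5-fold higher in the larva over the embryo (9.73 to 11.4) yet only 1.23-fold lower in the pupa (1.19 to 1.27). Of the genes named similar to vitellogenin, the precursor of yolk protein, TC010839 had 1, 125, 2 and 4 reads from embryo to adult and TC013602 had 1, 27, 6 and 7. Another gene of that name, TC009851, was at 58.4 RPKM in embryos, 50.4 in larvae, 32.1 in pupae and 29.0 in adults. Its model is 882 bases long, against 5367 for TC010839 and 5376 for TC013602. No KEGG entry of these genes names vitellogenin. That of TC009851 is RING finger and CHY zinc finger domain-containing protein 1, so its name is uncertain. Vitellogenin is known to be abundant in egg-laying females, and none of these 3 genes was highest in the adult library. Vitellogenin had been planned as a check of the adult label, and these genes did not provide it. The vitellogenin receptor takes yolk into eggs. A gene named similar to it (TC004042), with the KEGG entry low density lipoprotein-related protein 2, had 20, 0, 3 and 49 reads from embryo to adult. TC004042 was 19.4-fold higher in the adult over the pupa (6.27 to 97.5).

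Iron carriers and other hemolymph proteins were 3 of 5 higher and 0 lower in the larva than in the embryo, 2 of 6 higher and 1 lower in the pupa than in the larva, and 2 of 6 higher and 0 lower in the adult than in the pupa, with medians of 1.40, 0.02 and -0.16. Of all genes, 18.6% were higher and 34.2% lower at the larval step, and 22.8% and 15.6% at the adult step. The pupal counts lie near the shares of all genes, 22.7% higher and 14.2% lower, and the all-gene medians were -0.62, 0.43 and -0.09. This list goes by name and includes TC010680, named similar to a cytosolic juvenile hormone binding protein. With median-ratio scaling the pupal count was 1 higher and 2 lower, with a median of -0.42, and the adult median was 0.06. Under it the all-gene medians were -0.004 at the pupal and 0.12 at the adult step, while the shares above are for RPKM as reported. The iron-storage ferritins TC000476 and TC001092 were highest in the larva. TC000476 was at 469 RPKM in embryos, 1391 in larvae, 944 in pupae and 710.1 in adults, and TC001092 at 491, 1299, 1140.4 and 879 RPKM in the same order. TC030767 is named similar to transferrin, an iron transporter, though its KEGG entry is melanoma-associated antigen p97. It was 5.85-fold higher in the larva over the embryo (3.88 to 9.12) and 4.47-fold lower in the pupa (3.15 to 6.47). Another ferritin, TC008237, was highest in the adult, with 1, 1, 25 and 144 reads from embryo to adult.

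For ecdysone and juvenile hormone, the hormones that time moults and metamorphosis, the list holds 12 gene models, of which 3 are named ecdysone receptor and 3 ultraspiracle, so counts can take a gene more than once. Of 11 models tested, 4 were higher and 0 lower in the larva than in the embryo, 0 higher and 3 lower in the pupa than in the larva, and 1 higher and 0 lower in the adult than in the pupa, with medians of 0.38, -0.83 and -0.21. Of all genes, 18.6% were higher and 34.2% lower at the larval step, 22.7% and 14.2% at the pupal step, and 22.8% and 15.6% at the adult step, with medians of -0.62, 0.43 and -0.09. With median-ratio scaling 6 in place of 3 were lower in the pupa and 2 in place of 1 higher in the adult, where the median was 0.01. Under it the all-gene medians were -0.004 at the pupal and 0.12 at the adult step, while the shares above are for RPKM as reported. A gene named similar to broad-complex (TC005476), after a transcription factor of metamorphosis, stood at 9.74 RPKM in embryos, 41.0 in larvae, 3.91 in pupae and 1.86 in adults, and was 10.5-fold lower in the pupa over the larva (4.21 to 33.6), from 5 pupal and 51 larval reads. Another model of that name, similar to broad-complex Z2 (TC012894), was more abundant and went the other way, at 101 RPKM in embryos, 50.3 in larvae, 97.7 in pupae and 83.3 in adults, and was 1.94-fold higher in the pupa over the larva (1.65 to 2.30). Juvenile hormone epoxide hydrolase (TC003438), which degrades juvenile hormone, was at 0.890, 56.7, 25.7 and 41.8 RPKM from embryo to adult, the first of these from 4 reads. Juvenile hormone esterase (TC014795), which also degrades the hormone, was at 67.9, 36.9, 20.4 and 66.2 RPKM in that order. Ecdysone response had been planned as a check of the pupal label. With 0 models at least 2-fold higher in the pupa than in the larva, the list did not provide it.

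Genes placed by name in insulin and amino acid signalling, the pathways that tell tissues about nutrition, numbered 10. They include TC000021, named similar to an S6 kinase, whose KEGG entry is mitogen- and stress-activated protein kinases. In the larva 2 were higher than in the embryo and 4 lower, in the pupa 1 was higher than in the larva and 3 lower, and in the adult 1 was higher than in the pupa and 0 lower, with medians of -0.44, -0.71 and 0.46. The larval counts lie near the shares of all genes, 18.6% higher and 34.2% lower. The other shares were 22.7% and 14.2% at the pupal step and 22.8% and 15.6% at the adult step, and the all-gene medians were -0.62, 0.43 and -0.09. Median-ratio scaling gave 4 higher and 1 lower for larva over embryo, with a median of 0.18, and for pupa over larva 0 higher and 5 lower. That scaling moved all genes too, with all-gene medians of -0.01 at the larval and -0.004 at the pupal step. The shares above are for RPKM as reported. The insulin-like receptor gene TC010784 was at 80.2 RPKM in embryos, 29.5 in larvae, 55.3 in pupae and 32.5 in adults. The insulin-like growth factor receptor gene TC007370, named after its values were seen, ran the opposite way at each step, at 8.80, 13.3, 5.81 and 10.9 RPKM from embryo to adult, and was 2.28-fold lower in the pupa over the larva (1.77 to 2.97). An insulin-like peptide (TC007035) was 5.53-fold higher in the larva over the embryo (2.81 to 12.1). A gene named similar to a cationic amino acid transporter (TC011826) was 3.36-fold lower there (2.61 to 4.36), though its KEGG entry is an L-type amino acid transporter. A list of prophenoloxidase and hemocyanin names matched 0 genes. It missed the pro-phenol oxidase subunit 1 gene (TC000325), described below, because of that spelling.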

How the data were processed

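The 4 RNA libraries were grouped by their sample titles. Per the submitters' processing notes, CASAVA 1.8.2, BSMAP 2.73 and SAMtools 0.1.19 were used in the series. No source used here names the aligner, counter, build or annotation of the RNA data. The deposited counts are unique reads per gene model, per the file headers, so reads shared by near-identical genes may be missing from them. The deposited RPKM equalled the value recomputed from counts, model length and library total up to rounding error. The deposited coverage is a percent of the model. A gene not listed in a file was taken as 0 reads.

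Stages were compared as log2 ratios of (RPKM + 1), later over earlier, for genes with at least 1 RPKM in either library, called from 2-fold on. Plain ratios have exact conditional binomial intervals, levels exact Poisson and shares exact Clopper-Pearson intervals, all at 95%. No p-value was computed. The steps were run on simulated Poisson counts with 200 genes changed by set folds. These counts hold no variation between animals or libraries, so they cannot test the 2-fold calls between stages. Named genes were the members, all genes of the storage, hemocyanin-superfamily and yolk and lipid carrier lists, up to 6 of each other list (other hemolymph proteins, hormone genes, nutrient signalling) and the 3 nearest profiles of each member. The members and lists were chosen with earlier results of these data known. Protein sequences were not used here, so a planned comparison of protein composition was not made. Calculations ran in Python 3.11.15 with scipy 1.17.1, numpy 2.4.6, pandas 2.3.3 and, for plots, matplotlib 3.10.9.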

Additional observations from a re-analysis of the deposited data

How the results depend on the processing

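No paired analysis was possible because each stage has 1 library and the labels give no shared replicate numbers; for the same reason no replicate could be left out. The counts of members at each step were within 1.5 times of those reported under every alternative run, except that 1 in place of 0 was higher in the adult over the pupa with a pseudocount of 0.1, with median-ratio scaling and when totals left out the 20 top genes per library, 53 genes together. The alternatives that left all counts in that range were no filter, a filter of 5 RPKM, totals without the members, scaling of the summed RPKM to a common total, a 4-fold threshold, a count of intervals beyond 2-fold, and hexamerin 3 added as a sixth gene, the last chosen after seeing the data. Of the 15 plain ratios none changed direction, and 5 of 5 members had the same order of libraries under each of the 4 scalings. Median-ratio scaling moved 5 of the 15 ratios by over 1.5 times, all for larva over embryo, by a factor of 1.56; the other scalings and the ratio of (RPKM + 1) moved the ratios by factors of 0.866 to 1.21. The summed share in the larva was 12.0% of the reads of genes listed in all 4 libraries. As a share of summed RPKM the sums were 0.0254%, 6.47%, 0.269% and 0.00844% from embryo to adult. Over TC005375, TC005376 and TC005377 alone they were 0.0379%, 8.57%, 0.160% and 0.00988% from embryo to adult. These moves follow from the lengths and genes that enter each share. Depth limits the low libraries most: adult reads per member ran from 32 to 137, and the pupal and embryo levels of arylphorin and hexamerin 2 could not be told apart.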

Other observations

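Enzymes related to the hexamerins were found through the KEGG field, after the data had been seen, since the name pattern for them had matched no gene. Besides the hexamerins, 5 genes carry the entry tyrosinase, and 2 of them had more than 2 reads in any library. The prophenoloxidase subunit 1 gene (TC000325), whose product darkens wounds and encapsulated parasites with melanin, stood at 9.48 RPKM in embryos, 132 in larvae, 29.6 in pupae and 2.85 in adults. It was 13.9-fold higher in the larva over the embryo (10.8 to 18.3), 4.46-fold lower in the pupa over the larva (3.85 to 5.18) and 10.4-fold lower in the adult over the pupa (6.44 to 17.9). TC014907, which has no name beyond the KEGG entry, was at 1.35, 16.8, 15.7 and 1.11 RPKM from embryo to adult. Its pupal and larval levels were not apart, at a ratio of 0.934 (0.719 to 1.21), and it was 14.2-fold lower in the adult over the pupa (6.66 to 36.0). TC014907 had 7 reads in the adult and 9 in the embryo.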
